A study of Mus musculus with 32 samples.

Results

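The 73 genes described here are the axon guidance ligands and receptors of the mouse kidney libraries. They were chosen by gene symbol from the 55806 gene identifiers in the deposited tables, by a rule that uses no measured value. They comprise 20 semaphorins, their receptors (9 plexins and the 2 neuropilins), 3 Slit ligands with 4 Robo receptors, 4 netrins with 6 netrin receptors (Dcc, Neo1 and the Unc5 genes), 5 ephrin-A and 3 ephrin-B ligands, and 9 EphA and 5 EphB receptors. A further 3 members are antisense RNAs of Plxna4 that the symbol rule also takes in. All 73 have a row in each of the 4 tables.

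RNA came from embryonic kidneys that carried 1 copy of a conditional mutant Enl (Mllt1) allele, either T1 (117_118insNHL) or T3 (111_113NPP>K), and from controls with wild-type Enl. The conditional allele gives wild-type Enl until Cre removes a floxed cassette. Mutant ENL was therefore made only in cells where Cre had been active and in their descendants, and other kidney cells kept wild-type ENL. In the Six2 series every embryo, control or mutant, carried the Six2-TGC transgene, which drives a GFP-Cre fusion in nephron progenitors and also gives aberrant Six3 expression. This series held whole E18.5 kidneys (2 control libraries, called ENL WT, 2 with T1 and 2 with T3) and sorted tdT+ cells of both stages, E14.5 and E18.5 (3 libraries of controls and 3 of Six2-ENL T1 at each). In the Foxd1 series every embryo carried Foxd1 GC, a knock-in that drives GFP-Cre in stromal progenitors and removes 1 working copy of Foxd1, controls included. It held sorted tdT+ cells (4 ENL WT and 4 Foxd1-ENL T1 libraries) and whole kidneys (3 and 3), all at E18.5. The sorted cells also carried a Cre-dependent tdTomato reporter, so tdT+ marks all descendants of the cells in which Cre was active. Values are in CPM, the counts scaled to a common library total, and libraries were compared as replicates, without information on litters, so the p values measure the spread between these libraries.

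Axon guidance genes were first known for steering growing axons, but their proteins act as short-range contact and repulsion signals in many tissues. Class 3 semaphorins are secreted and bind neuropilins, which signal through plexins. Slits bind Robo receptors, netrins bind Dcc, neogenin and Unc5 receptors, and membrane-bound ephrins bind Eph receptors on the neighbouring cell. In the developing kidney, Slit2 and Robo2 are known to limit where the ureteric bud grows out, Sema3a restrains its branching, and ephrins and semaphorins shape the glomerular capillaries.

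Totals ran from 76510702 to 157266455 counts in the Six2 libraries, from 67137194 to 79343015 in the whole Foxd1 kidneys and from 2557443 to 3508381 in the sorted Foxd1 cells. A level of 3 counts, taken as the limit of detection for counting error only, was therefore 0.841 to 1.22 CPM in sorted Foxd1 cells and at most 0.0446 CPM in the other libraries. Mllt1, which encodes ENL, was present in all 32 libraries, with log2 differences between mutant and control of -0.33 to -0.02, and these counts do not separate the mutant from the normal transcript. The sorted populations carried the markers of their label. The summed CPM of 8 stromal markers was 6869 to 9539 in the ENL WT Foxd1 cells against 303 to 533 in the ENL WT Six2 cells of E18.5, and that of 8 nephron progenitor markers was 1109 to 1411 in those Six2 cells against 172 to 229. Markers of other cell types were also detected in the sorted libraries. The summed CPM of the podocyte markers was 498 to 860 in the ENL WT Foxd1 cells and 2778 to 3247 in the ENL WT Six2 cells of E18.5. In whole ENL WT Foxd1 kidneys it was 1106 to 1148. The part of such cells in the differences between lineages was not tested. Xist and Ddx3y showed that sex was mixed within the Six2 sorted groups, while in whole Six2 kidneys both T1 libraries were male and both T3 libraries female. All sorted Foxd1 libraries were male and all whole Foxd1 kidneys female. Among the members only Efnb1, Plxna3 and Plxnb3 are X-linked, and none of them was called between genotypes.

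In the ENL WT cells the sorted Six2 and Foxd1 populations differed in their guidance genes. Genes were called between lineages when the adjusted p was below 0.01 and the fold exceeded 2. Of 60 members tested, 7 were higher in Foxd1 cells and 28 were higher in Six2 cells, 11.7% and 46.7% of those tested, where 27.2% and 28.2% of all genes tested were called in the same directions. The median log2 difference (Foxd1 minus Six2) over the members was -0.90, against -0.10 over all genes. The sorted Foxd1 cells were sequenced less deeply and came from another sequencing run with longer reads. Each lineage also had its own Cre allele, Foxd1 GC or Six2-TGC. Lineage therefore cannot be told apart from the run, the depth, the Cre allele or the sex of the embryos.

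Epha3, an EphA receptor, and Sema3a, a secreted semaphorin that signals through Nrp1, marked the Foxd1 side. Epha3 had 86.4, 64.1, 83.9 and 49.1 CPM in the 4 ENL WT Foxd1 libraries and 2.59, 2.44 and 0.916 CPM in the 3 ENL WT Six2 libraries of E18.5. Sema3a had 155, 175, 164 and 167 CPM in the Foxd1 libraries and 6.55, 6.61 and 3.21 CPM in the Six2 libraries. No library of either gene overlapped the other lineage, and the log2 differences in edgeR's quasi-likelihood test were 5.15 (SE 0.24, adjusted p = 2.1e-14) and 4.91 (SE 0.17, adjusted p = 1.07e-16). The other members higher in Foxd1 cells were Robo4 (3.21 on the log2 scale), Sema6b (2.32), Ntn3 (2.00), Plxnc1 (1.59) and Ephb3 (1.05). Robo4 is the endothelial Robo receptor, and the summed CPM of 8 endothelial markers was 214 to 412 in the ENL WT Foxd1 cells against 51.8 to 62.6 in the Six2 cells. The part of those cells in the Robo4 level was not tested.

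The Six2 side held the Slit ligands with 2 of their receptors. Slit1, Slit2 and Slit3 were all higher in Six2 cells, as were Robo1 and Robo2. Slit2 had 284 ± 20.7 CPM (SD, n = 3) in Six2 cells and 76.9 ± 3.43 CPM (n = 4) in Foxd1 cells, and Robo2 had 509 ± 35.0 and 110.4 ± 11.97 CPM. Epha2, an EphA receptor of epithelial cells, had 293 ± 30.7 CPM in Six2 cells and 11.99 ± 3.58 CPM in Foxd1 cells, a log2 difference of -4.62 (SE 0.13, adjusted p = 2.05e-18) in edgeR's quasi-likelihood test. Efnb2, the ephrin-B ligand of arteries and glomeruli, and Plxnb1, a receptor of class 4 semaphorins, differed by -2.56 and -2.85. Among the semaphorins, 9 of 19 tested were higher in Six2 cells and 2 in Foxd1 cells. Sema3g, a secreted semaphorin known from podocytes and vessels, was the most abundant guidance gene per kb of exon in E18.5 Six2 cells, with 69.5 ± 12.2 CPM per kb, followed by Epha2 with 66.4 ± 7.23 CPM per kb. In Foxd1 cells Efnb1, an ephrin-B ligand, and Nrp1 led with 46.3 ± 5.84 and 32.2 ± 2.29 CPM per kb.

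**Figure D1:**
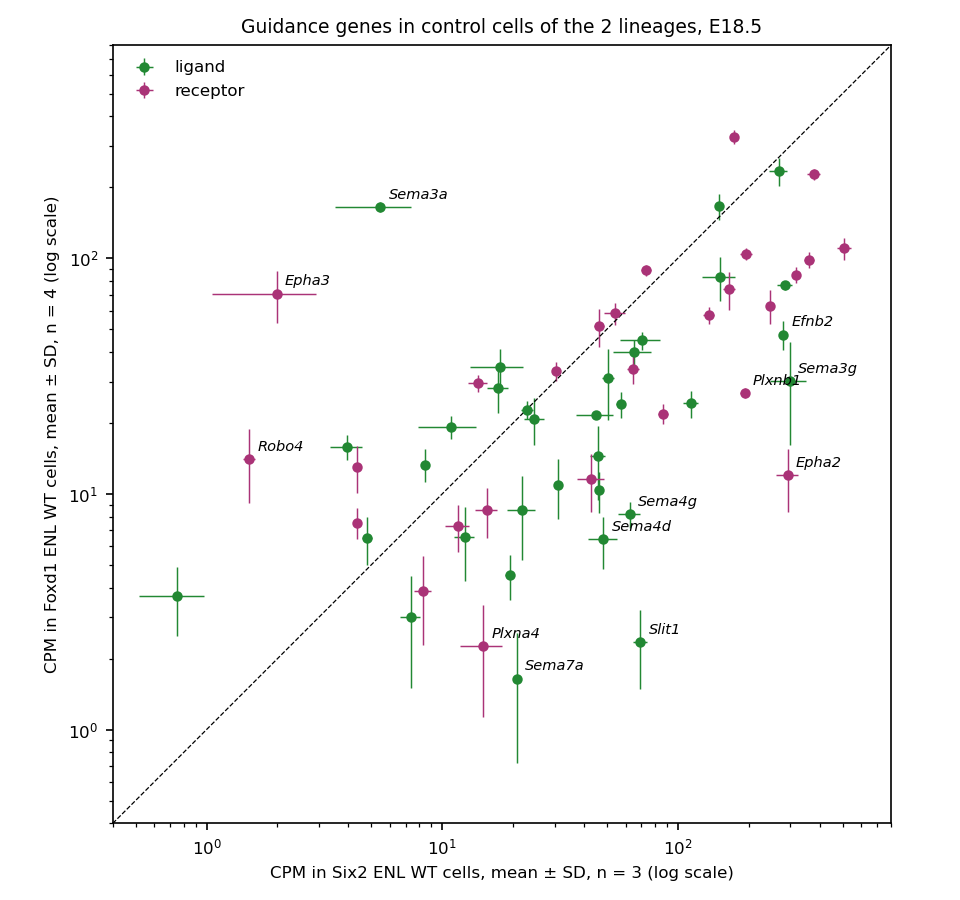
Mean CPM of each guidance gene tested in ENL WT sorted cells at E18.5, with Six2 cells (n = 3) on the x axis and Foxd1 cells (n = 4) on the y axis, both on log scales. Points are genes (green ligands, purple receptors), bars are SD, the dashed line marks equal CPM, and genes whose log2 difference exceeded 2.5 are named. Sema3a, Epha3 and Robo4 lie above the line, and 28 genes called higher in Six2 cells lie below it.

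Between E14.5 and E18.5 many guidance genes rose in ENL WT Six2 cells. With the same thresholds, 26 of 68 members tested rose and 9 fell (38.2% and 13.2%), where 24.8% and 20.6% of all genes tested did so. The stages differed in dissociation (trypsin at E14.5, collagenase at E18.5), which cannot be told apart from age. Sema3g rose from 3.26 ± 0.736 to 329 ± 58.0 CPM (SD, n = 3 and 3), Sema3e from 0.598 ± 0.335 to 24.1 ± 3.3 CPM and Nrp2, the neuropilin for Sema3c, Sema3f and Sema3g, from 3.43 ± 0.712 to 51.2 ± 2.65 CPM. Their log2 changes in edgeR's quasi-likelihood test were 6.66 (SE 0.19, adjusted p = 8.97e-13), 5.34 (SE 0.36, adjusted p = 5.34e-09) and 3.90 (SE 0.16, adjusted p = 2.33e-11). Sema7a, a membrane-anchored semaphorin, had only 7, 32 and 2 counts in the E14.5 ENL WT libraries and 22.9 ± 0.365 CPM at E18.5. Epha2 (4.65 on the log2 scale), Unc5b (3.63), Unc5c (2.18) and Plxnd1, the receptor of Sema3e (2.45), also rose. The members that fell were Epha5, Sema6b, Efna2, Sema4f, Efna4, Sema6c, Ntn3, Ephb6 and Ephb4, with log2 changes from -2.11 to -1.15. Efna4 shares 10.5% of its exon length with another gene, and without strand the reads there cannot be assigned. The summed CPM of the podocyte markers was 99.5 to 128 at E14.5 and 2778 to 3247 at E18.5, and their part in these rises was not tested. In such bulk libraries, fewer cells of a type and less RNA per cell cannot be told apart.

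With this background, the genotypes were compared within each experiment. A call here required an adjusted p below 0.05 and more than a 1.5-fold difference. In whole Six2 kidneys with T1, 2 of 69 members rose and 2 fell (2.9% each), where 2.88% of all genes rose and 4.88% fell. With T3, 5 of 69 rose and 3 fell (7.25% and 4.35%), against 4.34% and 5.28% of all genes. In Six2 cells of E14.5, 9 of 65 rose and 4 fell (13.8% and 6.15%), against 4.11% and 2.28%. In Six2 cells of E18.5, 12 of 68 rose and 10 fell (17.6% and 14.7%), against 6.14% and 5.54%. In Foxd1 cells, 7 of 56 rose and 3 fell (12.5% and 5.36%), against 3.63% and 2.18%, and in whole Foxd1 kidneys 4 of 67 rose and 2 fell (5.97% and 2.99%), against 2.65% and 7.53%. The shares of called members were thus above the background in each direction in the 3 sorted comparisons. In whole kidneys the shares of falls were near or below it. The shares of rises there were above it with T3 and in the Foxd1 series, and near it with T1 in the Six2 series. None of these shares was tested.

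Other cell types moved in the same libraries. In E18.5 Six2 cells with T1 all 6 podocyte and all 6 proximal tubule markers and 6 of 8 nephron progenitor markers fell, while 5 of 8 stromal, 5 of 6 macrophage and 5 of 6 red cell markers rose. The 4 markers of loop and distal tubule and 3 of 5 ureteric tree markers tested also fell. The summed CPM of 8 neural and Schwann cell markers was 22.3 to 30.6 in ENL WT and 51.4 to 54.6 in T1 there, and 25.3 to 29.7 and 37.4 to 44.0 at E14.5, with 1 of 4 and 2 of 6 markers tested called as rising. The summed CPM of the progenitor markers was 1109 to 1411 in ENL WT and 433 to 552 in T1 there, and 1923 to 2241 and 1030 to 1231 at E14.5. In Foxd1 cells the sum of the 7 ureteric tree markers was 36.8 to 61.1 CPM in ENL WT and 8.15 to 11.9 CPM in T1, that of the proximal tubule markers 113 to 289 and 57.4 to 95.3 CPM, that of the loop and distal tubule markers 33.9 to 79.9 and 10.2 to 33.2 CPM, and that of the macrophage markers 60.9 to 156 and 154 to 216 CPM. The part of these cell types in the members' changes was not tested.

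The median log2 fold change of the members was small and above 0 in each comparison, from 0.03 in whole Six2 kidneys with T1 and in E14.5 cells to 0.14 in both Foxd1 comparisons. Over all genes tested it was -0.01 (whole Six2 kidneys with T1) to 0.02 (E18.5 Six2 cells). Of the 73 members, 35 were called in at least 1 of the 6 comparisons, 36 were tested but never called, and 2 antisense RNAs were too low to be tested anywhere. Such a count over the 6 comparisons together was not made for all genes, so the 35 have no background to be set against. Plxna2 and Nrp2 rose in 4 comparisons, and Epha3, Sema4f and Unc5d rose in 3. Ntn4, Sema3d and Sema3g fell in 3. Called in opposite directions in different experiments were Epha4, Ntn1, Robo2, Sema3e and Slit1. The T1 and T3 comparisons of whole Six2 kidneys share their 2 ENL WT libraries and are not independent.

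**Figure D2:**
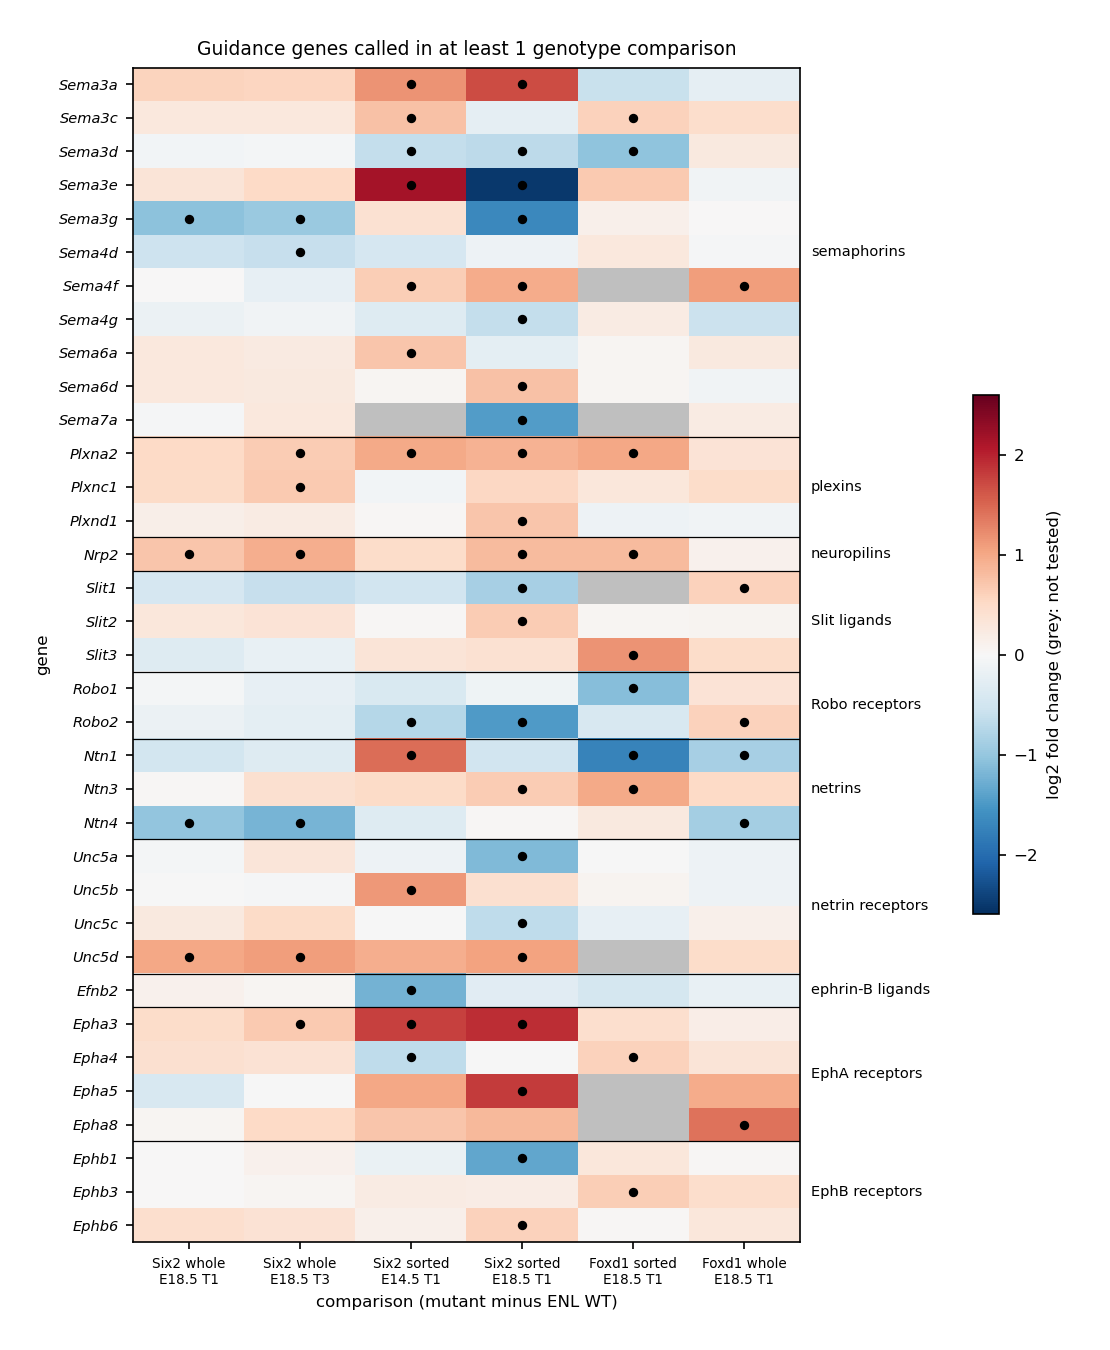
Log2 fold change (mutant minus ENL WT, colour scale from -2.6 to 2.6) of the 35 guidance genes called in at least 1 of the 6 genotype comparisons, with genes in rows by family and comparisons in columns. Black dots mark called genes and grey cells genes not tested there. Plxna2 and Nrp2 carry 4 dots each, all on red, while Sema3e is red in E14.5 and blue in E18.5 Six2 cells.

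Plxna2, a plexin that pairs with neuropilins, rose in the sorted cells of both lineages and at both stages. At E14.5 it had 13.5, 15.1 and 10.9 CPM in ENL WT, against 25.2, 27.1 and 26.1 CPM with T1. At E18.5 the Six2 cells had 31.5, 31.9 and 33.0 CPM in ENL WT, against 51.6, 64.5 and 63.7 CPM with T1, and the Foxd1 cells had 31.4, 35.9, 31.3 and 29.2 CPM in ENL WT, against 68.9, 61.1, 65.0 and 64.2 CPM with T1. The mutant libraries lay above all controls in each of the 3 sorted experiments. The log2 fold changes were 0.99 (SE 0.12, adjusted p = 0.00133), 0.90 (SE 0.09, adjusted p = 8.12e-06) and 1.01 (SE 0.10, adjusted p = 8.44e-07) in edgeR's quasi-likelihood test. In whole kidneys Plxna2 rose with T3 (log2 fold change 0.66, SE 0.06, adjusted p = 0.000463), and with T1 it differed by 0.51 (SE 0.06, adjusted p = 0.00174) in the Six2 and 0.37 (SE 0.07, adjusted p = 0.0022) in the Foxd1 series, both below the fold threshold.

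Nrp2 also rose in the E18.5 cells of both lineages. In E18.5 Six2 cells it had 51.3, 49.8 and 46.2 CPM in ENL WT, against 94.9, 77.0 and 89.2 CPM with T1, and in Foxd1 cells 62.2, 47.1, 48.4 and 40.1 CPM in ENL WT, against 83.4, 84.5, 87.9 and 98.1 CPM with T1. The log2 fold changes were 0.82 (SE 0.08, adjusted p = 7.73e-06) and 0.83 (SE 0.11, adjusted p = 4.71e-05). In whole Six2 kidneys Nrp2 had 75.4 and 91.7 CPM in the controls, 129 and 145 CPM in T1 and 159 and 161 CPM in T3, with log2 fold changes of 0.71 (SE 0.10, adjusted p = 0.0029) and 0.94 (SE 0.10, adjusted p = 0.00072). The T1 call was lost when ENL WT replicate 1 was left out, where the value was 0.58. Nrp2 in whole Foxd1 kidneys had 67.0 ± 1.48 CPM in ENL WT (SD, n = 3) and 72.8 ± 3.7 CPM in T1 (n = 3) and did not pass the test (log2 fold change 0.12, SE 0.05, adjusted p = 0.109). At E14.5 the level was low in all libraries, 2.91, 3.4 and 4.35 CPM in ENL WT against 5.14, 3.93 and 5.81 CPM in T1, and the groups overlapped (log2 fold change 0.48, SE 0.20, adjusted p = 0.161). Nrp1, the other neuropilin, was called in none of the 6 comparisons.

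The other 2 plexins called, Plxnd1 and Plxnc1, were each called in 1 comparison. Plxnd1 rose in E18.5 Six2 cells from 207 ± 14.1 to 342 ± 18.2 CPM (SD, n = 3 and 3, log2 fold change 0.73, SE 0.07, adjusted p = 6.02e-06). Plxnc1, the receptor of Sema7a, rose in whole Six2 kidneys with T3 from 14.8 ± 1.2 to 23.7 ± 1.64 CPM (n = 2 and 2), while the macrophage markers, of which 4 of 6 rose there, moved with it (summed CPM 113 to 115 in ENL WT and 163 to 176 in T3). The part of macrophages in the Plxnc1 level was not tested.

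Sema3d was the ligand that fell in all 3 sorted experiments. At E14.5 it had 77.3, 99.0 and 72.9 CPM in ENL WT, against 54.7, 53.9 and 52.8 CPM with T1. At E18.5 the Six2 cells had 52.9, 57.4 and 51.1 CPM in ENL WT, against 41.9, 27.7 and 31.6 CPM with T1, and the Foxd1 cells had 26.1, 27.4, 44.3 and 21.1 CPM in ENL WT, against 13.4, 14.1, 14.53 and 14.99 CPM with T1. The log2 fold changes were -0.63 (SE 0.11, adjusted p = 0.00623), -0.67 (SE 0.12, adjusted p = 0.00151) and -1.04 (SE 0.19, adjusted p = 0.0014), and no mutant library reached a control. The calls in Six2 cells lay close to the fold threshold. They were lost when libraries were scaled by library size only (-0.58 and -0.58), without ENL WT replicate 2 at E14.5 (-0.48) and without T1 replicate 2 at E18.5 (-0.55). In whole Foxd1 kidneys Sema3d was slightly higher in the mutant (log2 fold change 0.26, SE 0.06, adjusted p = 0.00685).

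The DNA just before the transcription start is shown for 4 of the 8 members called 1 way in 3 or more genotype comparisons. Plxna2 and Nrp2 rose and Sema3d fell in the cells of both lineages at E18.5. Sema3g fell in E18.5 Six2 cells and in whole Six2 kidneys. Ntn3 also rose in both lineages but was called in fewer comparisons, and its window and those of the other members are not shown. The 250 bases upstream of the RefSeq start on build GRCm38.p6 are chr1:194619579-194619828, plus strand for Plxna2, chr1:62703067-62703316, plus strand for Nrp2, chr5:12382916-12383165, plus strand for Sema3d and chr14:31217623-31217872, plus strand for Sema3g. These starts need not be those used in the kidney. Capitals mark matches, on either strand, to the TATA box TATAAA, the GC box GGGCGG, the CCAAT box, the homeodomain core TAATTA or the E-box CACGTG.
Plxna2: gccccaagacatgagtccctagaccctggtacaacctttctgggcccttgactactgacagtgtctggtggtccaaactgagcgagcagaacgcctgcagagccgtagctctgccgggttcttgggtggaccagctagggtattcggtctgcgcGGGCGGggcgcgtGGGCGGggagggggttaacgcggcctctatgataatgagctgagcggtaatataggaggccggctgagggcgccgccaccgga
Nrp2: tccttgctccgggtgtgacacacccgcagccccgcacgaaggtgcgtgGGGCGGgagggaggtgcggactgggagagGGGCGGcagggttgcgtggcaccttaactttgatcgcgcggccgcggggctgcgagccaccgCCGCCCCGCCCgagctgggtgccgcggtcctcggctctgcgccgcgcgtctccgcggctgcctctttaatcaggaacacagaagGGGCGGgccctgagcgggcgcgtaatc
Sema3d: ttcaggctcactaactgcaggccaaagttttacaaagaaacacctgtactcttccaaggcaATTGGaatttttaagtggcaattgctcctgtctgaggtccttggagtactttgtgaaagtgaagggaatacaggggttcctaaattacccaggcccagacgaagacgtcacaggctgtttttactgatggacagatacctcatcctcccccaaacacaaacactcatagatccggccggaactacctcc
Sema3g: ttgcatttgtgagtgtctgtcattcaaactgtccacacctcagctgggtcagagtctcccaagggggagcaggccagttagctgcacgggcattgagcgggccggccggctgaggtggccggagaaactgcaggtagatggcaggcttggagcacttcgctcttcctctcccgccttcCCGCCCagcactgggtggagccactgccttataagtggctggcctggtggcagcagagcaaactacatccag
GC boxes were found 2 times before Plxna2, 5 times before Nrp2, with 2 of the 5 sharing 1 base, and 1 time before Sema3g, and at least 1 lies in 32.7% of the 32851 mouse windows of the same length. Sema3d held 1 CCAAT match, which 33.8% of windows have, and no GC box. The TATA box, the homeodomain core and the E-box, present in 12.4%, 4.84% and 6.02% of windows, were found in none of the 4. The GC content was 62.8% for Plxna2, 72.4% for Nrp2, 60.4% for Sema3g and 46.8% for Sema3d, with a median of 52.4% over all windows. A match is a run of letters and not a measured site.

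Sema3e and Sema3g had the largest falls among the members in E18.5 Six2 cells. Sema3g had 300.3, 377 and 269.6 CPM in ENL WT, against 106, 93.0 and 99.0 CPM with T1, with the mutant libraries far below the controls (log2 fold change -1.67, SE 0.11, adjusted p = 1.43e-07). In whole Six2 kidneys it had 122.6 and 135 CPM in the controls, 59.4 and 63.6 CPM in T1 and 68.4 and 63.2 CPM in T3 (log2 fold change -1.06, SE 0.07, adjusted p = 0.000132, and -0.97, SE 0.07, adjusted p = 0.000158). All 6 podocyte markers fell in each of these comparisons too. Their summed CPM in sorted cells was 2778 to 3247 in ENL WT and 202 to 252 in T1, a larger fall than that of Sema3g, and in whole kidneys 908 to 1030 in ENL WT and 277 to 297 in the mutants. The part of podocytes in the Sema3g level was not tested. In whole Foxd1 kidneys Sema3g did not pass the test (log2 fold change 0.01, SE 0.07, adjusted p = 0.959, 95% interval -0.13 to 0.14), nor did it in Foxd1 cells (log2 fold change 0.13, SE 0.23, adjusted p = 0.789, 95% interval -0.32 to 0.57). No podocyte marker was called in those whole kidneys. The summed CPM of these markers there was 1106 to 1148 in ENL WT and 834 to 1088 in T1. Their part was not tested there either.

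Sema3e, a secreted semaphorin that binds Plxnd1 without a neuropilin, had 19.7, 25.6 and 24.1 CPM in ENL WT, against 4.08, 4.64 and 3.42 CPM with T1 at E18.5. At E14.5 the order was the opposite, with 1.00, 0.324 and 0.53 CPM in ENL WT, against 3.36, 1.68 and 3.3 CPM with T1. The groups did not overlap at either stage, and the log2 fold changes were -2.51 (SE 0.14, adjusted p = 4.28e-08) at E18.5 and 2.17 (SE 0.43, adjusted p = 0.013) at E14.5. The E14.5 call was lost without T1 replicate 1, where the value was 2.01. Its receptor gene Plxnd1 rose at E18.5, as given above. In Foxd1 cells Sema3e had 12.9, 7.37, 5.69 and 6.93 CPM in ENL WT against 11.9, 14.8, 17.4 and 10.1 CPM in T1, with overlapping groups (log2 fold change 0.67, SE 0.25, adjusted p = 0.0931).

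Sema3a rose in Six2 cells at both stages. It had 8.72, 11.8 and 12.4 CPM in ENL WT, against 25.3, 20.6 and 28.0 CPM with T1 at E14.5, and 6.97, 6.99 and 3.39 CPM in ENL WT, against 20.2, 18.6 and 17.7 CPM with T1 at E18.5, with log2 fold changes of 1.16 (SE 0.16, adjusted p = 0.00237) and 1.70 (SE 0.21, adjusted p = 5.82e-05). In the Foxd1 cells, where its level was highest, it had 149, 168, 158 and 159.7 CPM in ENL WT, against 109, 103, 104 and 109 CPM with T1, and the mutant libraries were all lower although the fold change stayed just under the threshold (log2 fold change -0.58, SE 0.07, adjusted p = 1.81e-05). Stromal markers moved with the rise in Six2 cells. Of 8 stromal markers, 6 rose at E14.5 and 5 at E18.5, and their summed CPM was 452 to 621 in ENL WT and 895 to 1859 in T1 at E14.5, and 303 to 533 and 755 to 879 at E18.5. Their part in the Sema3a level was not tested.

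The genes Sema3d, Sema3a, Sema3e and Sema3c lie in this order in 5.35 Mb of chromosome 5 (12383385 to 17730268 in mm10, plus strand), and did not change alike. At E14.5 Sema3d fell while Sema3a, Sema3e and Sema3c rose, Sema3c from 42.3 ± 12.4 to 71.9 ± 9.85 CPM (log2 fold change 0.76, SE 0.19, adjusted p = 0.0318). At E18.5 Sema3d and Sema3e fell, Sema3a rose, and Sema3c did not pass the test (log2 fold change -0.23, SE 0.10, adjusted p = 0.127). In Foxd1 cells Sema3d fell and Sema3c rose from 80.4 ± 17.0 to 121 ± 11.4 CPM (log2 fold change 0.59, SE 0.12, adjusted p = 0.00292). The Sema3c calls were fragile. At E14.5 the call was lost without ENL WT replicate 1 or 2 or T1 replicate 1 or 3, with 0.64 to 1.03 over the libraries left out. In Foxd1 cells it was lost without ENL WT replicate 4 or T1 replicate 1 or 2 and under DESeq2 or no filter on low counts or a filter at 1 CPM, with 0.46 to 0.67 over the libraries left out.

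**Figure D3:**
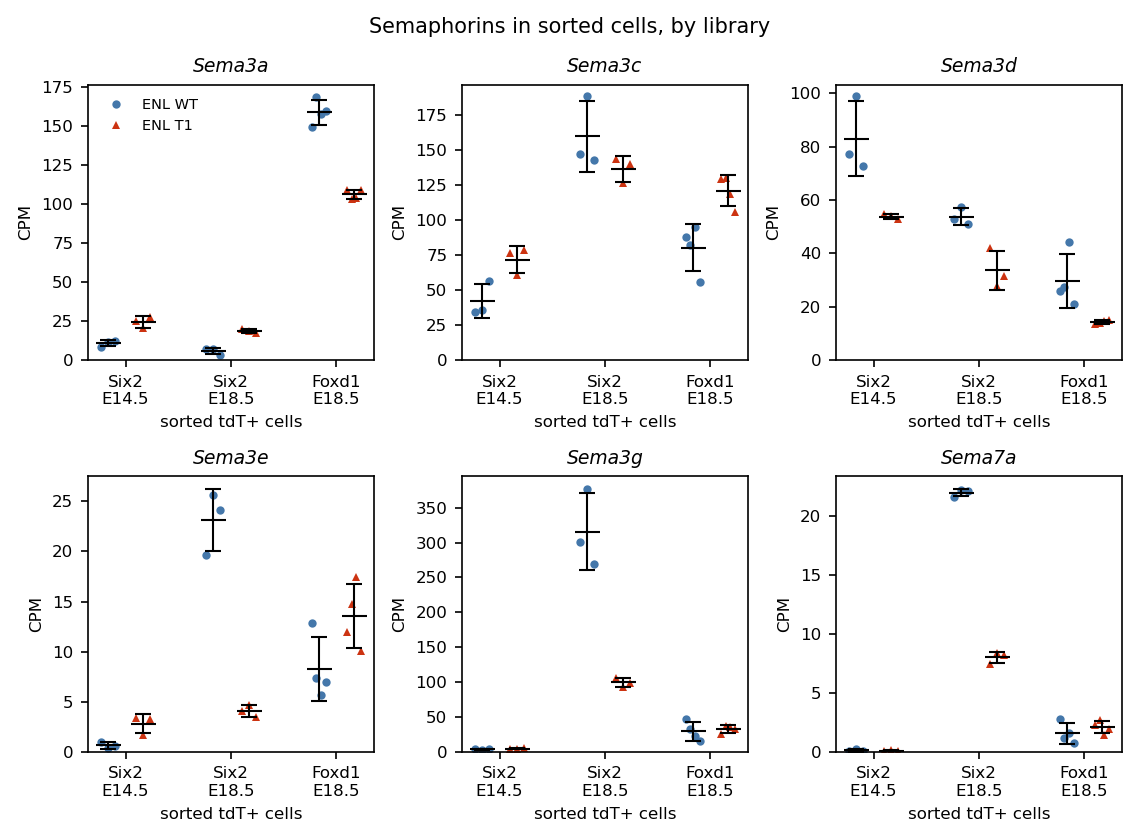
CPM of 6 semaphorins in each sorted library (linear axis from 0) for Six2 cells of E14.5 and E18.5 and Foxd1 cells of E18.5, with ENL WT as blue circles and ENL T1 as red triangles. Black lines are means and bars SD, with n = 3 per group in Six2 cells and 4 in Foxd1 cells. Sema3d is lower in T1 in all 3 sets, while Sema3e is higher in T1 at E14.5 and lower at E18.5.

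The other called semaphorins were membrane-bound. Sema7a fell in E18.5 Six2 cells from 21.6, 22.2 and 22.1 CPM to 7.44, 8.34 and 8.21 CPM (log2 fold change -1.46, SE 0.10, adjusted p = 1.82e-07), and Sema4g from 66.4 ± 7.32 to 43.4 ± 4.45 CPM (log2 fold change -0.61, SE 0.09, adjusted p = 0.000376). Sema6d rose there from 26.1 ± 2.51 to 44.4 ± 3.83 CPM (log2 fold change 0.77, SE 0.09, adjusted p = 5.23e-05). Sema6a rose at E14.5 from 24.1 ± 2.09 to 39.8 ± 1.85 CPM (log2 fold change 0.73, SE 0.08, adjusted p = 0.000909), and Sema4d fell in whole Six2 kidneys with T3 from 90.0 ± 4.95 to 59.7 ± 2.9 CPM (log2 fold change -0.59, SE 0.07, adjusted p = 0.00106). Sema4f was low everywhere but rose in E14.5 and E18.5 Six2 cells and in whole Foxd1 kidneys. Its means went from 4.63 ± 0.441 to 7.27 ± 1.55, from 1.32 ± 0.157 to 2.58 ± 0.171 and from 1.37 ± 0.241 to 2.91 ± 0.166 CPM (n = 3 each), with log2 fold changes of 0.65 (SE 0.16, adjusted p = 0.0358), 0.96 (SE 0.20, adjusted p = 0.00349) and 1.09 (SE 0.18, adjusted p = 0.000473). The E14.5 call of Sema4f was lost without any 1 of 5 of the 6 libraries (all but T1 replicate 2), with values of 0.48 to 0.78. Sema4g lost its call without ENL WT replicate 1 or T1 replicate 1 and under scaling by library size only (-0.70 to -0.53 over the libraries left out), and Sema4d without ENL WT replicate 2 or T3 replicate 2 and under scaling by library size only or a filter at 1 CPM or RLE size factors (-0.65 to -0.52).

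Robo2, the Slit receptor known from the nephrogenic mesenchyme and from podocytes, fell in Six2 cells at both stages. It had 484, 549.8 and 417 CPM in ENL WT, against 292, 299 and 276 CPM with T1 at E14.5 and 500.0, 549 and 566 CPM in ENL WT, against 184, 195 and 206 CPM with T1 at E18.5. The mutant libraries lay well below the controls, as did the progenitor marker sums given above and the podocyte marker sums (99.5 to 128 in ENL WT and 53.1 to 59.2 in T1 at E14.5, 2778 to 3247 and 202 to 252 at E18.5), and the log2 fold changes were -0.74 (SE 0.09, adjusted p = 0.00136) and -1.46 (SE 0.07, adjusted p = 1.21e-08). The part of these cell types was not tested. In Foxd1 cells Robo2 had 120.2, 105, 92.3 and 107 CPM in ENL WT, against 86.1, 74.8, 78.8 and 78.5 CPM with T1, lower in all mutant libraries but under the fold threshold (log2 fold change -0.42, SE 0.09, adjusted p = 0.00353). The whole Six2 kidneys did not pass the test for it (log2 fold change -0.15, SE 0.09, adjusted p = 0.334 with T1, and -0.26, SE 0.09, adjusted p = 0.0834 with T3). In whole Foxd1 kidneys it rose, from 117, 97.3 and 108 CPM to 177, 155 and 158 CPM (log2 fold change 0.61, SE 0.07, adjusted p = 2.77e-05), as did 5 of the 8 nephron progenitor markers, whose summed CPM was 535 to 573 in ENL WT and 791 to 964 in T1. The part of the progenitors in this level was not tested. The rise was lost without ENL WT replicate 2 (0.54) or without T1 replicate 1 (0.55).

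Robo1 was called as falling in Foxd1 cells, with 58.3, 61.6, 49.2 and 73.3 CPM in ENL WT, against 30.5, 27.8, 29.8 and 24.8 CPM with T1 (log2 fold change -1.11, SE 0.12, adjusted p = 5.03e-06). In whole Foxd1 kidneys the mutant libraries were higher than the controls, 126, 126 and 125 against 99.5, 96.0 and 99.8 CPM, below the fold threshold (log2 fold change 0.36, SE 0.05, adjusted p = 9.63e-05). In E18.5 Six2 cells Robo1 differed by -0.10 (SE 0.06, adjusted p = 0.287).

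All 3 Slit ligands were called in at least 1 comparison. Slit2 had 318, 275 and 308 CPM in ENL WT, against 436, 479 and 509 CPM with T1 in E18.5 Six2 cells, a rise of 0.66 (SE 0.08, adjusted p = 3.38e-05), and did not pass the test at E14.5 (log2 fold change 0.04, SE 0.05, adjusted p = 0.67, 95% interval -0.05 to 0.14) or in Foxd1 cells (log2 fold change 0.06, SE 0.08, adjusted p = 0.735). Slit3 rose in Foxd1 cells, from 13.5, 9.43, 20.7 and 12.03 CPM to 36.1, 34.2, 24.0 and 28.0 CPM (log2 fold change 1.17, SE 0.19, adjusted p = 0.0005). Slit1, singled out after its values were seen, had 76.8, 67.4 and 76.1 CPM in ENL WT, against 34.9, 44.4 and 42.7 CPM with T1 in E18.5 Six2 cells (log2 fold change -0.85, SE 0.09, adjusted p = 1.84e-05), and rose in whole Foxd1 kidneys from 22.1 ± 2.22 to 33.3 ± 1.71 CPM (log2 fold change 0.59, SE 0.08, adjusted p = 6.86e-05). Hence in E18.5 Six2 cells the ligand Slit2 rose while Slit1 and the receptor Robo2 fell. The Slit1 value in whole Foxd1 kidneys lay just above the fold threshold, and whether the Slit1 calls held under the alternatives is not given here.

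Ntn1, the founding secreted netrin, carried the largest fall of any member in Foxd1 cells. It had 27.2, 33.9, 30.5 and 41.6 CPM in ENL WT, against 13.4, 11.1, 6.9 and 8.47 CPM with T1, and all mutant libraries lay far below the controls (log2 fold change -1.73, SE 0.19, adjusted p = 4.06e-06). In whole Foxd1 kidneys it fell from 146, 161 and 167 CPM to 85.4, 88.7 and 85.3 CPM (log2 fold change -0.87, SE 0.06, adjusted p = 2.23e-07). The ENL WT level was thus several times higher in whole kidneys than in sorted cells, whose libraries were made with another kit. Which cells carried the whole-kidney level was not tested. Of the 8 stromal markers 1 rose and 2 fell in the Foxd1 cells, and their summed CPM overlapped between genotypes (6869 to 9539 in ENL WT, 7164 to 8076 in T1). The ureteric tree, proximal tubule, loop and macrophage sums moved in these cells as given above, and in whole Foxd1 kidneys the ureteric tree sum was 471 to 632 CPM in ENL WT and 329 to 359 CPM in T1. Their part in the Ntn1 level was not tested.

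In E14.5 Six2 cells Ntn1 went the other way. It had 6.14, 8.58 and 5.91 CPM in ENL WT, against 22.3, 14.003 and 20.02 CPM with T1, a rise of 1.45 (SE 0.20, adjusted p = 0.0027), while the stromal marker sum rose as given above, and the part of those cells was not tested. At E18.5 it had 21.9, 20.9 and 13.1 CPM in ENL WT, against 13.6, 12.6 and 13.4 CPM with T1, with ENL WT replicate 3 as low as the mutant libraries. The difference was under the fold threshold (log2 fold change -0.50, SE 0.16, adjusted p = 0.0417) and became a called fall of -0.70 without that library. Whole Six2 kidneys had 133 and 179 CPM in the controls, 115 and 107 CPM in T1 and 116 and 132 CPM in T3, also under the fold threshold (log2 fold change -0.49, SE 0.13, adjusted p = 0.047, and -0.33, SE 0.13, adjusted p = 0.133).

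Ntn4, a basement membrane netrin, fell in whole kidneys of both series but in no sorted population. In whole Six2 kidneys it had 26.7 and 32.0 CPM in the controls, 13.8 and 14.9 CPM in T1 and 12.5 and 12.8 CPM in T3 (log2 fold change -1.03, SE 0.10, adjusted p = 0.000667, and -1.21, SE 0.10, adjusted p = 0.000304). In whole Foxd1 kidneys it had 38.0, 41.8 and 37.6 CPM in ENL WT, against 18.3, 23.6 and 21.3 CPM with T1 (log2 fold change -0.89, SE 0.08, adjusted p = 4.02e-06). In E18.5 Six2 cells the log2 fold change was 0.03 (SE 0.09, adjusted p = 0.861) with a 95% interval of -0.15 to 0.21, and in Foxd1 cells 0.26 (SE 0.29, adjusted p = 0.648) with an interval of -0.31 to 0.82. Proximal tubule markers moved with Ntn4 in whole kidneys (6 of 6 fell with T1 and with T3 in the Six2 series, 5 of 6 in the Foxd1 series) as did loop and distal tubule markers (4 of 4 with T1 and with T3, 3 of 4 in the Foxd1 series). The ureteric tree sum was 319 to 393 CPM in ENL WT and 253 to 273 CPM in the mutants of the Six2 series, and fell in the Foxd1 series as given above. The part of these cell types in the Ntn4 level was not tested. Ntn3 rose in the sorted cells of both lineages at E18.5, from 4.18 ± 0.666 to 6.58 ± 0.809 CPM in Six2 cells (log2 fold change 0.66, SE 0.16, adjusted p = 0.00905) and from 15.3 ± 1.9 to 30.1 ± 3.15 CPM in Foxd1 cells (log2 fold change 0.99, SE 0.14, adjusted p = 7.84e-05). The Six2 call was lost without ENL WT replicate 2 (0.58).

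Among the netrin receptors, Unc5c was abundant in E18.5 Six2 cells and fell there, with 363, 387 and 395 CPM in ENL WT, against 224, 247 and 257 CPM with T1 (log2 fold change -0.66, SE 0.07, adjusted p = 1.42e-05). With scaling by library size only the value was -0.56, under the fold threshold. At E14.5 it did not pass the test, with 106, 85.9 and 82.1 CPM in ENL WT against 85.6, 93.5 and 92.4 CPM in T1 (log2 fold change -0.01, SE 0.09, adjusted p = 0.96), and in Foxd1 cells it differed by -0.21 (SE 0.08, adjusted p = 0.121). In whole Six2 kidneys with T3 it was higher but under the fold threshold (log2 fold change 0.50, SE 0.06, adjusted p = 0.0013). Unc5a also fell at E18.5, from 4.48, 4.59 and 4.72 CPM to 1.66, 2.07 and 2.48 CPM (log2 fold change -1.15, SE 0.18, adjusted p = 0.000402), whereas Unc5b rose at E14.5 from 6.67, 4.32 and 4.04 CPM to 10.05, 10.7 and 12.1 CPM (log2 fold change 1.13, SE 0.19, adjusted p = 0.00637). Unc5d was low but rose in E18.5 Six2 cells, from 0.802, 1.02 and 1.48 CPM to 2.4, 2.11 and 2.34 CPM (log2 fold change 1.05, SE 0.25, adjusted p = 0.00809), and in whole Six2 kidneys with T1 (log2 fold change 1.00, SE 0.22, adjusted p = 0.0221) and T3 (log2 fold change 1.09, SE 0.22, adjusted p = 0.0135). The whole-kidney calls of Unc5d were lost without either of the 2 libraries of the mutant concerned (ranges of 0.79 to 1.26 and of 0.88 to 1.36 over all libraries left out). In Foxd1 cells Unc5d was at 0 counts in the 4 ENL WT libraries and at 3, 3, 2 and 1 counts in T1, too few for a test or a fold change. Dcc and Neo1 were called in no genotype comparison. In Foxd1 cells Neo1 was higher in all mutant libraries, with 77.3, 91.0, 78.9 and 79.1 CPM in ENL WT, against 110.3, 112, 110.4 and 102 CPM with T1, but under the fold threshold (log2 fold change 0.41, SE 0.08, adjusted p = 0.00187).

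**Figure D4:**
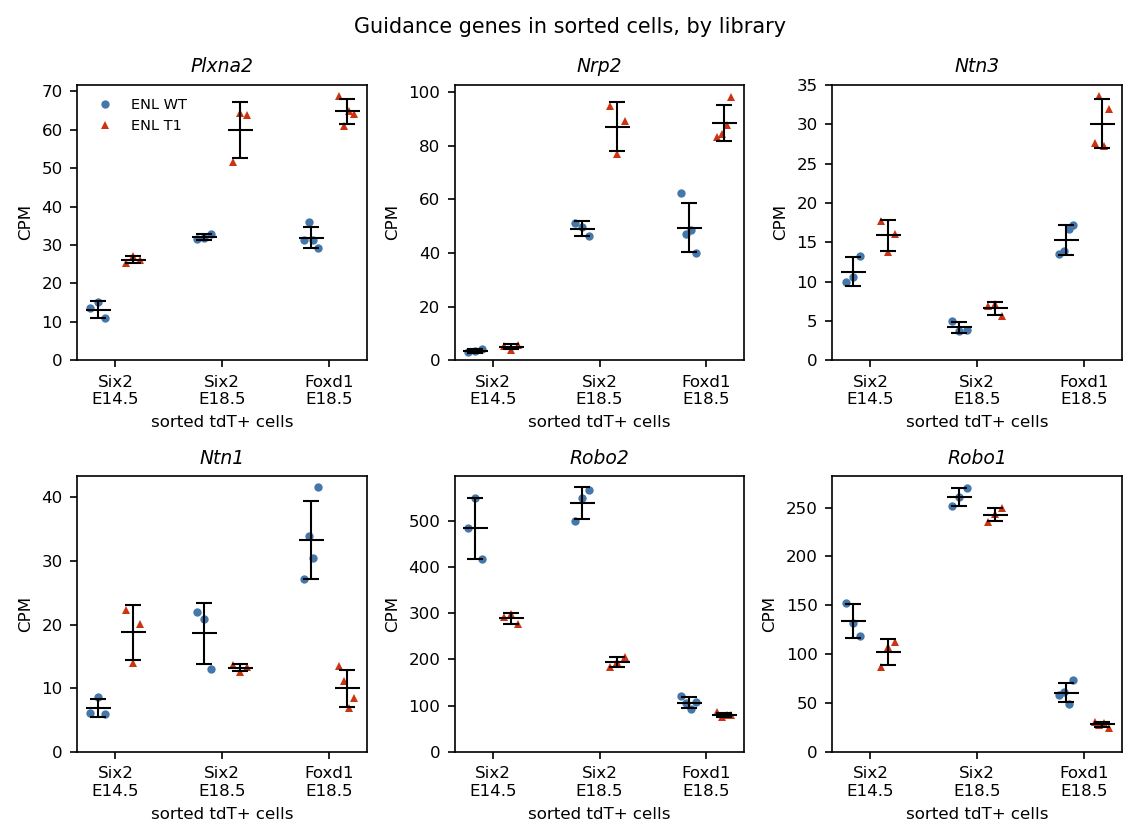
CPM of 6 guidance genes in each sorted library (linear axis from 0) for Six2 cells of E14.5 and E18.5 and Foxd1 cells of E18.5, with ENL WT as blue circles and ENL T1 as red triangles. Black lines are means and bars SD, with n = 3 per group in Six2 cells and 4 in Foxd1 cells. Plxna2 is higher in T1 in all 3 sets, Ntn1 is higher at E14.5 and lower in Foxd1 cells, and Robo2 is lowest in T1 relative to ENL WT at E18.5 in Six2 cells.

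Ephrin ligands were rarely called. Efnb2 alone among the 8 ephrins was called, at E14.5, with 112, 108 and 108 CPM in ENL WT, against 47.3, 49.3 and 43.0 CPM with T1 (log2 fold change -1.23, SE 0.06, adjusted p = 2.07e-05). At E18.5 the mutant libraries were also below the controls, by less than the fold threshold (log2 fold change -0.30, SE 0.07, adjusted p = 0.00522 in Six2 cells, and -0.46, SE 0.12, adjusted p = 0.0176 in Foxd1 cells). Efnb1 differed by -0.46 (SE 0.04, adjusted p = 0.000279) at E14.5. It lies on the X chromosome, and the E14.5 libraries were of both sexes in each genotype.

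Epha3, which was higher in the sorted Foxd1 than in the sorted Six2 cells of the controls, rose in Six2 cells at both stages. It had 1.12, 1.24 and 3.28 CPM in ENL WT, against 6.18, 4.74 and 8.5 CPM with T1 at E14.5, and 2.76, 2.58 and 0.966 CPM in ENL WT, against 8.43, 8.64 and 6.86 CPM with T1 at E18.5, still far below the Foxd1 level. The log2 fold changes were 1.78 (SE 0.41, adjusted p = 0.0251) and 1.92 (SE 0.28, adjusted p = 0.000282), with the stromal markers rising beside them as for Sema3a and their part again not tested. The E14.5 call was lost without ENL WT replicate 1 or 2 or T1 replicate 1 or 3, with values of 1.52 to 2.46 over the libraries left out. Epha3 also rose in whole Six2 kidneys with T3, from 53.5 and 47.5 CPM to 83.0 and 80.0 CPM (log2 fold change 0.69, SE 0.07, adjusted p = 0.00073).

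Epha4 fell in E14.5 Six2 cells, from 55.2, 49.8 and 42.1 CPM to 25.8, 34.0 and 33.1 CPM (log2 fold change -0.67, SE 0.13, adjusted p = 0.0112), and rose in Foxd1 cells, from 84.4, 66.9, 78.5 and 54.3 CPM to 127, 92.9, 108 and 102 CPM (log2 fold change 0.59, SE 0.12, adjusted p = 0.00283). Both calls were lost without single libraries. At E14.5 these were ENL WT replicate 1 and T1 replicate 1, with a range of -0.76 to -0.55. In Foxd1 cells the call was lost without ENL WT replicate 2 or 4 or T1 replicate 1 or 3 and under no filter on low counts or a filter at 1 CPM, with a range of 0.49 to 0.69. Ephb1 fell in E18.5 Six2 cells, with 16.0, 18.3 and 14.8 CPM in ENL WT, against 6.57, 6.53 and 6.28 CPM with T1 (log2 fold change -1.34, SE 0.11, adjusted p = 1.6e-06), and Ephb6, a receptor without kinase activity, rose there from 12.3 ± 1.48 to 18.8 ± 1.73 CPM (log2 fold change 0.61, SE 0.11, adjusted p = 0.00163). The Ephb6 call was lost without ENL WT replicate 2 or 3 or T1 replicate 1, with a range of 0.55 to 0.71. Ephb3 rose in Foxd1 cells from 28.4 ± 2.35 to 44.1 ± 4.22 CPM (log2 fold change 0.65, SE 0.11, adjusted p = 0.000578). The 2 remaining calls were of scarce receptors. Epha8 rose in whole Foxd1 kidneys from 1.43, 1.88 and 1.7 CPM to 4.38, 4.06 and 4.85 CPM (log2 fold change 1.41, SE 0.16, adjusted p = 1.96e-05). Epha5 rose in E18.5 Six2 cells from 19, 9 and 10 counts to 41, 50 and 52 counts (log2 fold change 1.82, SE 0.46, adjusted p = 0.0134), a call lost without ENL WT replicate 2 or T1 replicate 2 or 3, with a range of 1.61 to 2.19.

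Next, the effect of ENL T1 in Six2 cells was compared between stages by an interaction term, called at an adjusted p under 0.05. Of 68 members tested, 10 had a more positive effect at E18.5 and 9 a more negative effect (14.7% and 13.2%), where 3.94% and 4.22% of all genes were called. Sema3e differed most, with an interaction (E18.5 minus E14.5) of -4.68 (SE 0.46, adjusted p = 3.08e-05) on the log2 scale in edgeR's quasi-likelihood test. Sema3g (log2 interaction -2.06, SE 0.22, adjusted p = 6.98e-05) and Ntn1 (log2 interaction -1.93, SE 0.29, adjusted p = 0.000968) followed. For Ntn1 the fitted effects were 1.45 at E14.5 and -0.50 at E18.5, and for Sema3g 0.40 and -1.67, the former not past the test. Robo2 fell at both stages but more at E18.5 (log2 interaction -0.71, SE 0.12, adjusted p = 0.00258). In the other direction, Efnb2 fell less at E18.5 (log2 interaction 0.95, SE 0.09, adjusted p = 1.83e-05), and Slit2, Plxnd1 and Sema6d, which rose at E18.5, had interactions of 0.63, 0.71 and 0.73. The Sema6d call was lost without E18.5 ENL WT replicate 1 or 3 or E18.5 T1 replicate 1 or 2, with a range of 0.60 to 0.83. Plxna2, Epha3, Sema3a and Sema3d were not among the 19.

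The stage interaction also called members with no genotype call of their own. Efnb1, which binds EphB receptors, had 317, 307 and 301 CPM in ENL WT, against 219, 224 and 231 CPM with T1 at E14.5, and 164, 155 and 155 CPM in ENL WT, against 156, 162 and 144 CPM with T1 at E18.5. Ephb4, the receptor of Efnb2, had 189, 189.6 and 181 CPM in ENL WT, against 181, 176 and 179 CPM with T1 at E14.5, and 82.6, 76.7 and 73.7 CPM in ENL WT, against 102, 97.9 and 98.1 CPM with T1 at E18.5. Efnb1 was lower in all mutant libraries at E14.5 and overlapped at E18.5, while Ephb4 was higher in all mutant libraries at E18.5, and the interactions were 0.43 (SE 0.07, adjusted p = 0.00271) and 0.43 (SE 0.07, adjusted p = 0.00222). Sema3f, a ligand of Nrp2, had 205, 199.7 and 197 CPM in ENL WT, against 203, 218 and 211 CPM with T1 at E14.5, and 129.7, 112 and 119 CPM in ENL WT, against 173, 169.5 and 164 CPM with T1 at E18.5 (log2 interaction 0.43, SE 0.08, adjusted p = 0.00501). The secreted Sema3b had an interaction of -0.53 (SE 0.15, adjusted p = 0.0441), lost without E14.5 ENL WT replicate 1 or 2 or E14.5 T1 replicate 2 or 3 or E18.5 ENL WT replicate 2 or E18.5 T1 replicate 1 or 2 and under scaling by library size only (-0.65 to -0.43 over the libraries left out), and the membrane-bound Sema6c of 0.88 (SE 0.21, adjusted p = 0.0185), lost without E18.5 ENL WT replicate 2 or 3 or E18.5 T1 replicate 2 (0.70 to 1.09).

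**Figure D5:**
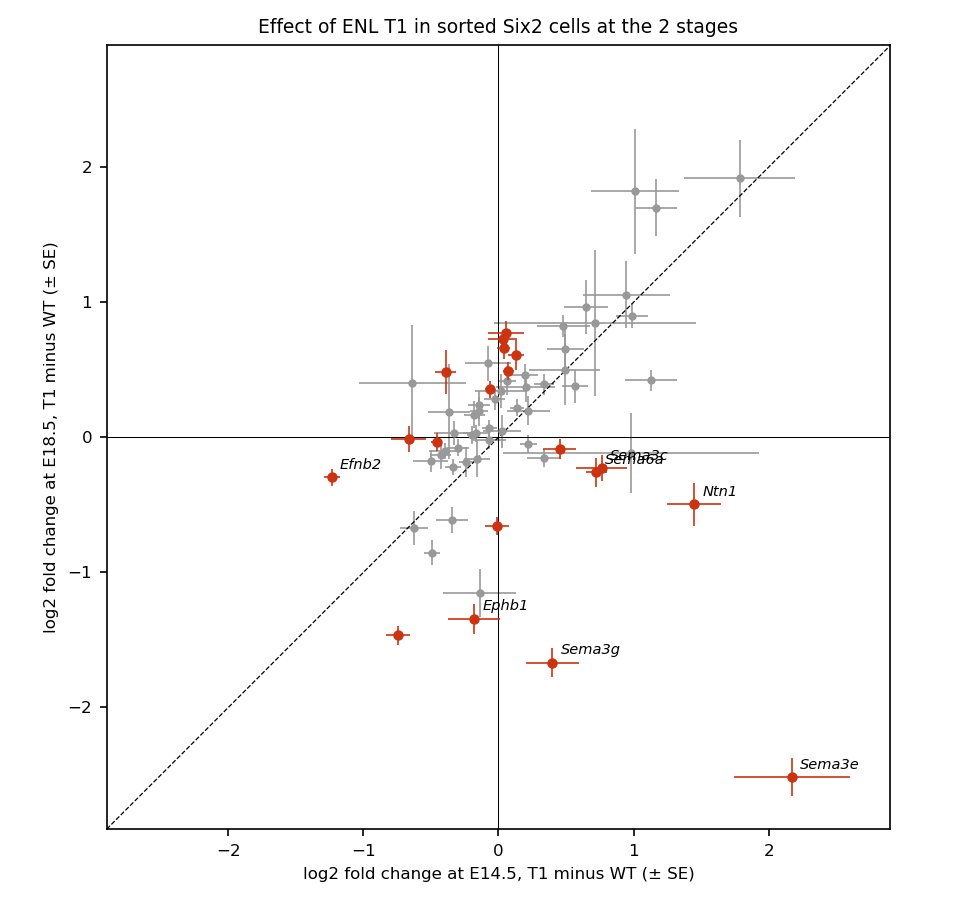
Log2 fold change of each guidance gene (T1 minus ENL WT) in sorted Six2 cells at E14.5 (x axis) and E18.5 (y axis), with bars of 1 SE and the dashed line at equal effects. Red points passed the test of stage by genotype interaction, and those with an interaction above 0.9 in size are named. Sema3e lies far into the lower right, with 2.17 at E14.5 and -2.51 at E18.5, and Ntn1, Sema3c and Sema6a lie right of 0 with values below 0 at E18.5.

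Of the 10 members that fell in E18.5 Six2 cells with T1, 6 (Ephb1, Sema3e, Sema3g, Sema4g, Sema7a and Unc5c) had risen between E14.5 and E18.5 in ENL WT cells and none had fallen. The fits share the E18.5 ENL WT libraries, so this is a description. The same counts over all genes are not given here, so these counts do not set the members apart from other genes. Of the 12 that rose, 3 had risen in development (Nrp2, Plxna2 and Plxnd1) and 4 had fallen (Epha5, Ephb6, Ntn3 and Sema4f).

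The effect of T1 was then compared between Foxd1 and Six2 cells of E18.5. Of 60 members tested, the interaction was positive (a more positive effect in Foxd1 cells) for 13 and negative for 9 (21.7% and 15%), where 8.25% and 7.63% of all genes were called. Sema3e (log2 interaction 3.17, SE 0.30, adjusted p = 1.52e-07), Sema7a (log2 interaction 1.79, SE 0.40, adjusted p = 0.0033), Sema3g (log2 interaction 1.78, SE 0.28, adjusted p = 0.000101) and Ephb1 (log2 interaction 1.63, SE 0.23, adjusted p = 3.83e-05) had the most positive interactions, all of them genes that fell in Six2 cells. Sema7a in Foxd1 cells was near the level of 3 counts, 0.729 to 2.80 CPM in ENL WT. Sema3a (log2 interaction -2.30, SE 0.21, adjusted p = 1.03e-07), Epha3 (log2 interaction -1.49, SE 0.30, adjusted p = 0.00139), Ntn1 (log2 interaction -1.26, SE 0.28, adjusted p = 0.00287) and Robo1 (log2 interaction -1.02, SE 0.14, adjusted p = 1.9e-05) had the most negative. Plxna2, Nrp2, Ntn3 and Sema3d, the members called alike in both lineages, were not among the 22. They made up 3 of the 12 rises in Six2 cells (25%) and of the 7 in Foxd1 cells (42.9%), and 1 of the 10 falls in Six2 cells and of the 3 in Foxd1 cells (10% and 33.3%). Without the matching shares over all genes, which are not given here, this overlap cannot be read as particular to the members.

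The 55 other genes of these pathways, 19 coreceptors and further ligands and 36 intracellular effectors, were counted in the same fits. In E18.5 Six2 cells 9 of 55 rose and 4 fell (16.4% and 7.27%, against 6.14% and 5.54% of all genes), and at E14.5 6 of 53 rose and 5 fell (11.3% and 9.43%, against 4.11% and 2.28%). In Foxd1 cells 4 of 39 rose and 1 fell (10.3% and 2.56%, against 3.63% and 2.18%). In whole Six2 kidneys 3 of 55 rose and 1 fell with each of T1 and T3 (5.45% and 1.82%, against 2.88% and 4.88% with T1 and 4.34% and 5.28% with T3). Draxin alone rose in whole Foxd1 kidneys (1.82%, against 2.65%) and no partner was called as falling, where 7.53% of all genes fell. Between lineages 8 of 49 were higher in Foxd1 cells and 24 in Six2 cells (16.3% and 49%, against 27.2% and 28.2%), and in development 18 of 55 rose (32.7%, against 24.8%) and 8 fell, where 20.6% of all genes fell. The stage interaction was positive for 11 and negative for 6 of 55 (20% and 10.9%, against 3.94% and 4.22%), and the lineage interaction for 7 and 5 of 49 (14.3% and 10.2%, against 8.25% and 7.63%).

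Ntng1 and Ntng2, which encode the membrane-anchored netrin-G proteins, moved in opposite directions. Ntng1 rose in Six2 cells at E14.5 (log2 fold change 1.45, SE 0.16, adjusted p = 0.000826) and E18.5 (log2 fold change 2.76, SE 0.37, adjusted p = 0.000109) and in Foxd1 cells (log2 fold change 1.97, SE 0.14, adjusted p = 4.23e-08). Ntng2 fell in E18.5 Six2 cells (log2 fold change -4.25, SE 0.16, adjusted p = 9.9e-10) and in whole Six2 kidneys with T1 (log2 fold change -2.96, SE 0.27, adjusted p = 0.000475) and T3 (log2 fold change -2.62, SE 0.27, adjusted p = 0.000646). The podocyte markers fell in each of these comparisons, as given for Sema3g, and their part in the Ntng2 level was not tested. Dscaml1, a homophilic adhesion receptor, rose in E18.5 Six2 cells (log2 fold change 3.60, SE 0.26, adjusted p = 4.23e-07) and in whole Six2 kidneys (1.15 with T1, 1.10 with T3). Flrt2, a ligand of Unc5 receptors, rose in whole Six2 kidneys with T3 (log2 fold change 0.80, SE 0.06, adjusted p = 0.000158), and Plxdc1 with T1 (log2 fold change 1.05, SE 0.24, adjusted p = 0.0269). The contactin gene Cntn1 rose at E14.5 (2.36), where Vav3 and Mical2, of the plexin effector family, fell (-1.92 and -0.87). Mical2 rose in Foxd1 cells (0.96) and the adaptor gene Nck2 fell (-0.61). Lrrc4, a netrin-G ligand, fell in E18.5 Six2 cells (-1.57), and Draxin, a netrin antagonist, was the gene that rose in whole Foxd1 kidneys (0.64).

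Of the partners in the controls, Ntng2 rose most in development (10.18), followed by Srgap1, which acts below Robo receptors (4.33). Srgap1 was also higher in Six2 cells (-3.70), in the same direction as Robo2 between lineages. Crmp1 and Dpysl4, of the family that mediates semaphorin signals, fell in development (-4.01 and -2.59). Ntng1 and Rras, a target of plexins, were higher in Foxd1 cells (4.20 and 3.57), and Met, a receptor kinase that associates with class B plexins, in Six2 cells (-3.62). Stage interactions were largest for Dscaml1 (3.34) and Vav3 (1.91) upwards and Srgap1 (-1.05) and Flrt1 (-0.96) downwards. Lineage interactions were largest for Ntng2 (4.95) and Lrrc4 upwards and Ablim1 (-1.08) and Dpysl3 (-1.05) downwards.

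The 36 members tested but never called between genotypes include 7 of the 8 ephrins, Nrp1, Dcc, Neo1 and 6 of the 9 plexins. Some of them passed the adjusted p but not the fold threshold. Sema3f rose by 0.49 (SE 0.07, adjusted p = 0.000146) in E18.5 Six2 cells, Ephb4 by 0.36 (SE 0.06, adjusted p = 0.00125), and Neo1 rose by 0.43 (SE 0.05, adjusted p = 2.36e-05) in whole Foxd1 kidneys. Robo4, the endothelial receptor, had intervals of -0.19 to 0.14 and -0.20 to 0.09 in whole Six2 and Foxd1 kidneys with T1. No endothelial marker was called there. The summed CPM of these markers was 1099 to 1141 in ENL WT and 1055 to 1114 with T1 in whole Six2 kidneys. In whole Foxd1 kidneys it was 989 to 1052 in ENL WT and 851 to 971 in T1. The part of endothelial cells in the Robo4 level was not tested.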

How the data were processed

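The authors made libraries from whole-kidney RNA with KAPA Stranded mRNA-Seq and from sorted cells with SMART-seq, aligned the reads with HISAT2 to mm10 and counted them per gene with HTSeq, without strand. The deposited values are these counts, not normalized, in 4 tables. Symbols and exon lengths are from GENCODE vM21 (55536 of 55806 identifiers matched). All 32 libraries were used, grouped by their titles.

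Counts were fitted in R 4.3.3 with edgeR 4.0.16 (filterByExpr with minimum count 10 and minimum total 15, TMM factors of 0.912 to 1.10 over all fits, quasi-likelihood test), separately for each genotype comparison, with the whole Six2 kidneys in 1 fit, the 12 sorted Six2 libraries for development and stage interaction, and the 14 sorted E18.5 libraries for lineage and its interaction. Adjusted p values are Benjamini-Hochberg over all genes tested. The thresholds are those of the study where it gives them. SE is the log2 fold change divided by the square root of F. The sequencing runs of the sorted Six2 and Foxd1 cells differed. The scripts were tested on simulated data.

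The members follow a rule on gene symbols, but that rule, the marker lists (11 lists, 73 genes) and the partner lists were chosen with earlier results of these data known. Values of all libraries are given for members called in 1 direction in 3 or more genotype comparisons, the 3 largest called changes in each direction per comparison, Ntn1, Unc5c, Slit2 and Robo2, and members called in an interaction, shortened to means in places. Of the partners, the 2 largest called changes per direction are named. Promoter windows came from RefSeq and were matched for 60 of 70 coding members. Alternatives were DESeq2 1.42.0, edgeR's exact test, RLE factors, library size only, other low-count filters, a replicate block and each library left out. Whether single calls held under them was followed for members chosen by these rules, and is not given for Slit1, Ephb3 and Plxnc1. Replicate numbers did not pair libraries, with correlations of deviations from -0.0791 to 0.139 over 19 pairs. Libraries of 1 group correlated at 0.974 to 0.993, and none was a copy of another. Intervals are 95%.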

Additional observations from a re-analysis of the deposited data

Results flagged for a closer look

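In 19 members the effect of ENL T1 in sorted Six2 cells differed between stages by the test of the interaction term. The interactions, E18.5 minus E14.5 on the log2 scale, were those of Efnb1 (0.43), Efnb2 (0.95), Epha4 (0.66), Ephb1 (-1.15), Ephb4 (0.43), Ephb6 (0.49), Ntn1 (-1.93), Plxnd1 (0.71), Robo2 (-0.71), Sema3b (-0.53), Sema3c (-0.98), Sema3e (-4.68), Sema3f (0.43), Sema3g (-2.06), Sema6a (-0.98), Sema6c (0.88), Sema6d (0.73), Slit2 (0.63) and Unc5c (-0.63). Of these, 14 stayed past the threshold in all alternatives run, and Epha4, Ephb6, Sema3b, Sema6c and Sema6d did not. Podocyte markers moved with these interactions, 5 of 6 with a negative 1, and their part was not tested.

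In 22 members the effect of T1 at E18.5 differed between Foxd1 and Six2 cells by the same kind of test. The interactions, Foxd1 minus Six2, were those of Efna4 (-0.80), Epha3 (-1.49), Epha4 (0.59), Ephb1 (1.63), Neo1 (0.33), Ntn1 (-1.26), Plxnd1 (-0.87), Robo1 (-1.02), Robo2 (1.02), Sema3a (-2.30), Sema3c (0.80), Sema3e (3.17), Sema3g (1.78), Sema4g (0.82), Sema5a (0.38), Sema6d (-0.74), Sema7a (1.79), Slit2 (-0.62), Slit3 (0.76), Unc5a (1.13), Unc5b (-0.38) and Unc5c (0.43). Of these, 17 stayed past the threshold in all alternatives run, and Epha4, Neo1, Sema5a, Slit3 and Unc5b did not. Lineage cannot be told apart from the sequencing run, the depth, the Cre allele (Foxd1 GC or Six2-TGC) or the sex of the embryos here. The interaction was positive for 6 of 6 podocyte markers and negative for 5 of 8 stromal and 5 of 6 macrophage markers, and their part was not tested.

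A single library stood apart from the other 3 of its group in 4 of 70 groups of 4 libraries tested with Dixon's ratio, where chance gives about 1 in 20. All were sorted Foxd1 libraries. Efnb2 reached 38.6 CPM in 1 T1 library against 30.9 to 31.6 in the others, Sema6d 25 CPM in 1 T1 library against 18.9 to 19.8, and Neo1 91.0 CPM in 1 ENL WT library against 77.3 to 79.1. Sema6c was at 15.3 CPM in 1 ENL WT library against 19.4 to 19.9 in the others.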

How the results depend on the processing

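Counts of called members moved by over 1.5 times in 3 of 144 settings other than leaving out a library. With library size only, 8 members rose in whole Six2 kidneys with T3 in place of 5, among genes over 1 CPM 2 rose in whole Foxd1 kidneys in place of 4, and with DESeq2 14 had a negative stage interaction in place of 9. The cause was not tested. Leaving out 1 library in turn gave 1 to 6 rises and 2 to 5 falls with T1 and 4 to 10 and 2 to 4 with T3 in whole Six2 kidneys, 5 to 10 and 3 to 4 at E14.5, 9 to 13 and 9 to 11 at E18.5, 5 to 8 and 3 to 4 in Foxd1 cells, and 3 to 4 and 2 to 4 in whole Foxd1 kidneys. It gave 25 to 27 and 9 in development, 6 to 10 and 8 to 11 for the stage interaction, 6 to 9 and 27 to 29 between lineages, and 10 to 15 and 8 to 10 for the lineage interaction. The extremes came without ENL WT replicate 2 (6 rises with T1, 10 with T3), T1 replicate 2 (1 rise) and ENL WT replicate 1 (5 falls) in whole Six2 kidneys, T1 replicate 1 at E14.5 (5 rises), T1 replicate 2 in whole Foxd1 kidneys (4 falls) and ENL WT replicate 3 of E18.5 for the stage interaction (6 positive).

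Values that changed sign did not pass the test in either setting. Robo2 in whole Six2 kidneys with T1 ranged from -0.2702 to 0.0111 over the libraries left out, the latter without ENL WT replicate 2. Unc5c at E14.5 was at 0.0303 with library size only and ranged from -0.0828 to 0.1044, above 0 without ENL WT replicate 1 or T1 replicate 1. A further 3 calls appeared without 1 library, Ntn1 with T1 in whole Six2 kidneys (-0.68 without ENL WT replicate 1), Ntn1 at E18.5 (-0.70 without ENL WT replicate 3) and Slit2 with T3 (0.59 without ENL WT replicate 2).

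Library numbers did not pair the samples. With the replicate block the counts of called members were those of the fits without it (2 and 2, 5 and 3, 9 and 4, 12 and 10, 7 and 3, 4 and 2), except for 9 positive stage interactions in place of 10, 8 members higher in Foxd1 cells in place of 7 and 8 negative lineage interactions in place of 9.

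Scaling moved the median of all genes by over 0.1 on the log2 scale in development (0.15 with RLE factors and -0.12 with library size only, against 0.02) and with library size only at E18.5 (0.11) and between lineages (-0.19 against -0.10). Among all genes the split of positive against negative calls went from 995 and 1064 to 1268 and 882 for the stage interaction, and from 1226 and 1135 to 935 and 1555 for the lineage interaction, both with library size only. Depth limits the sorted Foxd1 cells, where 17 of 73 members were too low to be tested, Sema5b with 2.88 CPM in ENL WT among them.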
